A study of Rattus norvegicus with 8 samples.

Results

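MiR-653 and miR-489 are 2 miRNA hairpins that lie close together in Calcr, the gene of the calcitonin receptor. All rows of the deposited miRNA table named rno-miR-653 or rno-miR-489, with any arm suffix, were taken. They are rno-miR-653-5p, rno-miR-653-3p, rno-miR-489-5p and rno-miR-489-3p, or 4 mature miRNAs from 2 hairpins out of 974 rows, of which 604 are catalogued rat miRNAs with the rno- prefix. The rule itself uses names, but the hairpins were chosen by the levels of miR-653-5p in the 2 diets, which were already known, so the values of the members in that contrast are given as a description and without a test. The tested animals were male Wistar rats fed a high-fat diet for 8 weeks (hyperlipidemic, 4 libraries), and the controls were male Wistar rats on a normal diet for the same time (normal, 4 libraries). Every rat carried titanium implants in both femoral shafts. Bone was cut with a margin of 1 mm around them 10 days after implantation, when the animals were aged 12 to 13 weeks. The hyperlipidemia comes from diet alone, the bone piece holds marrow, blood and every other cell at the implant, and it is not stated whether each library comes from 1 rat or from pooled tissue, so the spread between libraries may be partly technical.

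The calcitonin receptor is carried by osteoclasts, the cells that resorb bone, and calcitonin restrains their resorption through it. In mouse, Calcr is also a gene of quiescent muscle stem cells, in which miR-489 helps to keep the cells out of the cycle. An intronic hairpin is cut out of the primary transcript, exported and diced, and from each hairpin 1 strand, the guide, is usually kept in Argonaute while the other decays. Bases 2 to 8 of the guide, the seed, pair with target transcripts, so the seed decides which mRNAs a miRNA can reach.

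The mature sequences are shown because the 4 members do not share a seed, and a difference in 1 member therefore bears on its own set of possible targets. They are from RefSeq (build GRCr8), are written 5′ to 3′, and carry the seed in capitals.
miR-653-5p: uUGAAACAuucucuacugaac
miR-653-3p: uUCACUGGgguuuguuucacua
miR-489-5p: uGUCGUAUgcgugaugacacguuc
miR-489-3p: aUGACAUCacauauauggcagc
The 4 seeds are all different, and no other mature miRNA among the 693 in the reference table has any of them. MiR-653-5p is 21 nt long and the poorest in G and C (33.3%). MiR-653-3p and miR-489-3p are 22 nt long with 40.9% G and C each, and miR-489-5p is 24 nt long with 50% G and C.

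The hairpins are shown with both mature arms in capitals, since the results below turn on which arm and which hairpin gave the reads. In GRCr8 Mir653 is at chr4:32647398-32647494 and Mir489 at chr4:32648039-32648144, both on the minus strand, and 544 bases separate them.
Mir653: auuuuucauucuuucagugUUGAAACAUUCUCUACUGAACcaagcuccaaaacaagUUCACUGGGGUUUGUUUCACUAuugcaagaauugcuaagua
Mir489: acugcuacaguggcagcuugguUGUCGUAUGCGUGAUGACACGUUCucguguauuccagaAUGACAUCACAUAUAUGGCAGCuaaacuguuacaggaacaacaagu
In that build both hairpins lie inside the span of Calcr and on its strand, and the reference table has no other miRNA gene within 100 kb. The values were made on another build, Rnor_6.0, so these positions only identify the hairpins. The reference table gives gene spans without exons, so the intronic position is background knowledge and was not checked here.

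Values are reads per 1000000 (RPM) of the catalogued class, and 1 read was worth 0.208 to 0.378 RPM in hyperlipidemic and 0.572 to 1.01 RPM in normal libraries. Behind that scale stood 2643500 to 4809902 reads in a hyperlipidemic library and 990801 to 1748968 in a normal one, so the libraries of the 2 groups do not overlap in depth. The catalogued rows sum to 854151 RPM (normal replicate 3) to 909193 RPM (hyperlipidemic replicate 3), not to 1000000. Part of the reads behind the scale is therefore in no catalogued row. Normal replicates 3 and 4 stood apart from the other 6 libraries in blood-cell miRNAs. The myeloid list (both arms of miR-142 and miR-223) made up 14.8% to 19.96% of the catalogued signal in hyperlipidemic libraries, against 18.0%, 20.2%, 9.34% and 6.08% in normal replicates 1, 2, 3 and 4. The erythroid list (both arms of miR-144, miR-451-5p and miR-486) made up 19.2% to 33.1%, against 20.2%, 17.9%, 8.95% and 7.77%. The part of this difference in the results below was not tested, and the folds, ratios and correlations of the members and the medians of the lists are also given without normal replicates 3 and 4.

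Rno-miR-653-5p, the leading arm of its hairpin, was lower in every hyperlipidemic library than in any normal one. It stood at 43.2, 19.0, 43.5 and 43.4 RPM in hyperlipidemic replicates 1 to 4, against 97.8, 222.8, 94.9 and 121 RPM in normal replicates 1 to 4. The lowest library was hyperlipidemic replicate 2 and the highest was normal replicate 2, and the groups were separated by the gap between 43.5 and 94.9 RPM. It averaged 37.3 ± 12.2 RPM (SD, n = 4) in hyperlipidemic libraries, against 134 ± 60.2 RPM (SD, n = 4) in normal ones. The log2 fold on log2(RPM + 0.475) was -1.82 (SE 0.41), a level 0.284 times that of normal libraries. Counting error was small beside this gap: the highest upper limit among the hyperlipidemic libraries was 52.2 RPM and the lowest lower limit among the normal ones 76.7 RPM (exact 95% intervals, which cover counting error only). The values rested on 208, 60, 115 and 145 reads in hyperlipidemic and 171, 311, 94 and 189 reads in normal libraries. Reads before scaling therefore overlapped, and the separation appears once each library is set against its own depth. Without normal replicates 3 and 4 the log2 fold was -2.05 (SE 0.51). In bulk tissue, fewer cells that make a miRNA and less of it in each cell cannot be told apart.

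MiR-489-3p, the leading arm of the neighbouring hairpin, did not separate the groups. It stood at 74.6, 60.6, 97.2 and 102.2 RPM in hyperlipidemic replicates 1 to 4, against 164, 375, 31.3 and 48.8 RPM in normal replicates 1 to 4. All 4 hyperlipidemic values lay between those of normal replicates 3 and 4, which were the lowest of the 8, and those of normal replicates 1 and 2, which were the highest. The hyperlipidemic libraries were close together (83.7 ± 19.5 RPM, SD, n = 4) and the normal ones far apart (155 ± 158 RPM, SD, n = 4). On the log2 scale the SD was 0.35 in hyperlipidemic and 1.63 in normal libraries. The log2 fold was -0.27 (SE 0.71). Without normal replicates 3 and 4 it was -1.59 (SE 0.41). That removal leaves only the highest values, those of normal replicates 1 and 2, so a fold below 0 was fixed in advance. For miR-489-3p it was not planned, and no likeness to miR-653-5p is read from it. Without normal replicate 2 alone the log2 fold was 0.37, above 0.

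The passenger arms were read rarely. The arm rno-miR-653-3p stood at 7.07, 0.95, 1.89 and 3.89 RPM in hyperlipidemic replicates 1 to 4, against 4.00, 8.60, 3.03 and 2.57 RPM in normal replicates 1 to 4. These rest on 3 to 34 reads in a library, the groups overlap, and the log2 fold was -0.49 (SE 0.71; -0.97 without normal replicates 3 and 4). MiR-489-5p stood at 4.16, 1.90, 4.16 and 2.10 RPM in hyperlipidemic replicates 1 to 4, against 4.00, 11.5, 4.04 and 0.64 RPM in normal replicates 1 to 4. The last value is a single read, the groups overlap, and the log2 fold was -0.26 (SE 0.79; -1.11 without normal replicates 3 and 4). At 72 to 81 reads over all 8 libraries, a difference of either passenger arm as large as that of miR-653-5p had few reads to rest on.

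**Figure D1:**
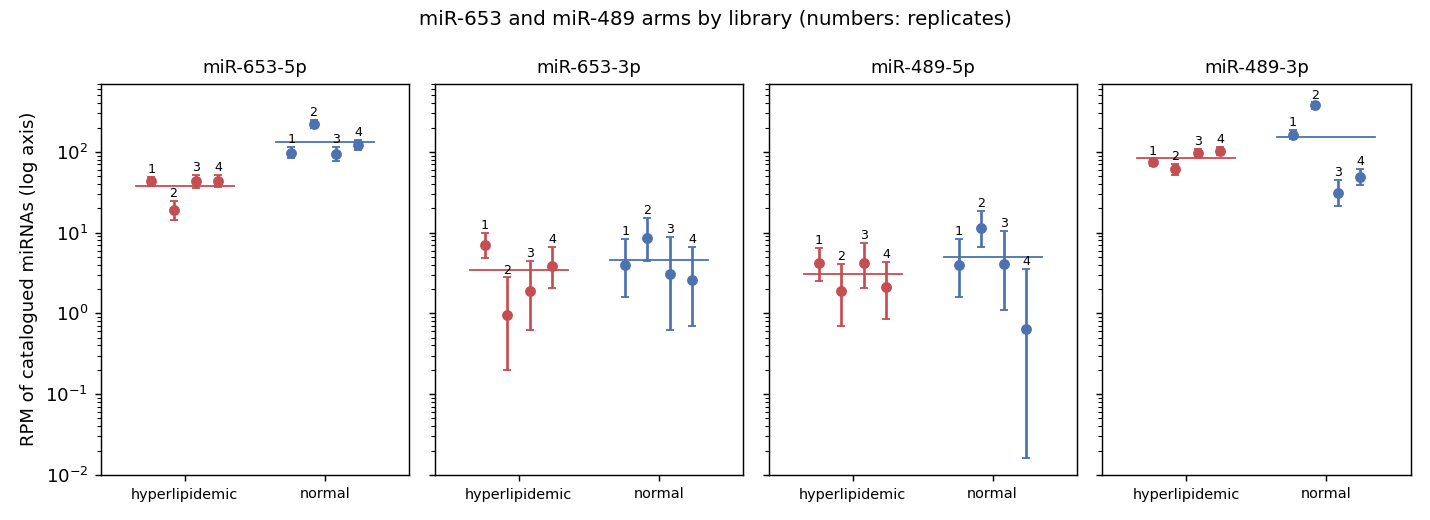
RPM of each of the 4 mature miRNAs in each library on a log axis, hyperlipidemic libraries to the left of normal ones. Points are libraries numbered by replicate, bars are exact 95% counting intervals and lines are group means. MiR-653-5p separates the groups between 43.5 and 94.9 RPM, while normal replicates 3 and 4 put miR-489-3p below every hyperlipidemic library.

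Among catalogued miRNAs the leading arms were of middling abundance. MiR-653-5p held rank 202 to 269 of 604 in hyperlipidemic and 134 to 184 in normal libraries. MiR-489-3p held rank 160 to 202 in hyperlipidemic and 107 to 246 in normal libraries. Ligation of adapters favours some miRNAs over others, so ranks and ratios between miRNAs are best read across libraries.

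All 4 members passed the filter on low values, and 1 of the 4 had groups that did not overlap. Over all 696 miRNAs tested, 12.6% had groups that did not overlap and 9.05% were lower without overlap in hyperlipidemic libraries. Among the 396 catalogued ones these shares were 11.6% and 10.6%. The members were picked with this contrast known, so their count is not read against the background. All 4 log2 folds were below 0, as were 61.9% of those of the catalogued miRNAs, whose median was -0.20. With median-of-ratios factors the catalogued median moved to -0.0015, and the log2 folds were -1.61 for miR-653-5p, -0.31 for miR-653-3p, -0.065 for miR-489-5p and -0.056 for miR-489-3p. Relative to the catalogued median, miR-653-5p lay at -1.62 on the deposited scale and at -1.60 with these factors. In the authors' deposited table miR-653-5p has a log2 fold of -1.96 and is called down. The other 3 members are called unchanged, with log2 folds of -0.41 for miR-653-3p, -0.27 for miR-489-5p and -0.44 for miR-489-3p. The authors' adjusted p is above 0.05 for all 4 members, so the call of miR-653-5p is not one at that level. It comes from the same libraries, and the share of all rows called down is not given here.

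**Figure D2:**
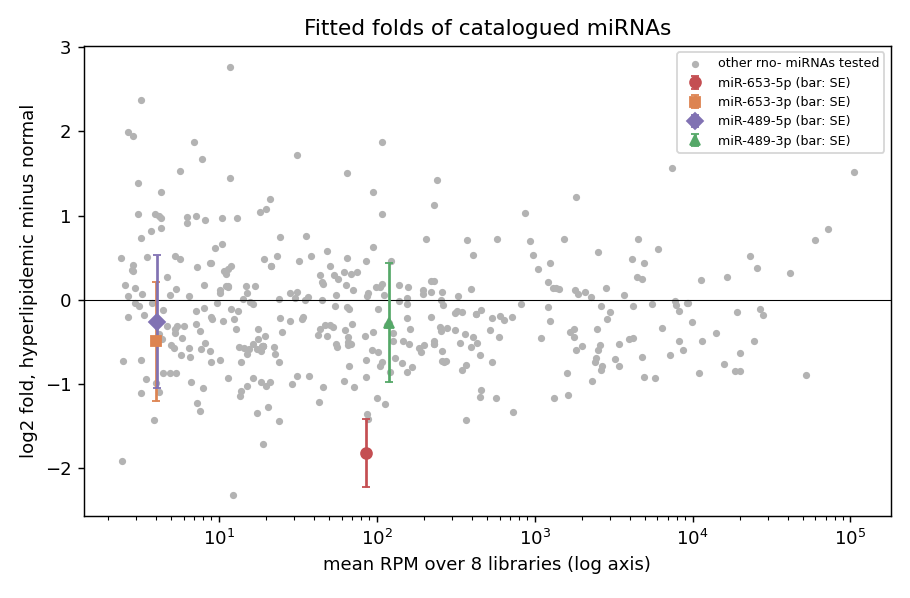
Log2 fold (hyperlipidemic minus normal, on log2(RPM + 0.475)) against mean RPM over the 8 libraries, on a log axis, for the 396 catalogued miRNAs tested. Grey points are other miRNAs, coloured points are the 4 members and bars are standard errors. MiR-653-5p lies at -1.82, and the other 3 members lie between -0.49 and -0.26.

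A plain ratio of 2 miRNAs within a library does not depend on how the library was scaled. MiR-653-5p was therefore divided by each of the 395 other catalogued miRNAs tested. Because 0.475 RPM was added to every value first, ratios to low denominators still depend in part on the scale. The mean log2 ratio was lower in hyperlipidemic libraries for 393 of the 395 denominators. For 181 of them every hyperlipidemic library was below every normal one. Taken as the numerator in turn, the median catalogued miRNA was lower without overlap against 5 denominators, and miR-653-5p held place 4 of 396 by this count. MiR-489-3p and miR-653-3p were lower without overlap against 7 denominators each and miR-489-5p against 4. Without normal replicates 3 and 4 the counts were 294 for miR-653-5p, 250 for miR-489-3p, 27 for miR-489-5p and 22 for miR-653-3p, against a median of 15. These counts were added after the data were seen, and that of miR-489-3p rests on the removal of its lowest values. These ratios come from the contrast that picked the members and describe how far the difference of miR-653-5p depends on the scale.

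The 2 hairpins did not keep a fixed ratio to each other, although they lie in 1 gene and on 1 strand. MiR-489-3p had 1.73, 3.18, 2.23 and 2.35 times the RPM of miR-653-5p in hyperlipidemic replicates 1 to 4, against 1.68, 1.68, 0.330 and 0.402 times in normal replicates 1 to 4. In 6 of the 8 libraries miR-489-3p was the higher, and in normal replicates 3 and 4 miR-653-5p was. As a share of the reads of both leading arms, miR-489-3p held 24.8% (exact 95% interval 17.5 to 33.3) in normal replicate 3 and 28.7% (23.3 to 34.5) in normal replicate 4, but 62.7% (58.1 to 67.1) and 62.8% (59.4 to 66.0) in normal replicates 1 and 2. Counting error does not span that gap. It averaged 69.7% ± 5.24 (SD, n = 4) in hyperlipidemic libraries, against 44.7% ± 20.8 (SD, n = 4) in normal ones. Hyperlipidemic replicate 1, at 63.3% (59.2 to 67.3), was level with normal replicates 1 and 2 within counting error. The mean log2 ratio was higher by 1.57 in hyperlipidemic libraries with all 8 libraries and by 0.46 without normal replicates 3 and 4.

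**Figure D3:**
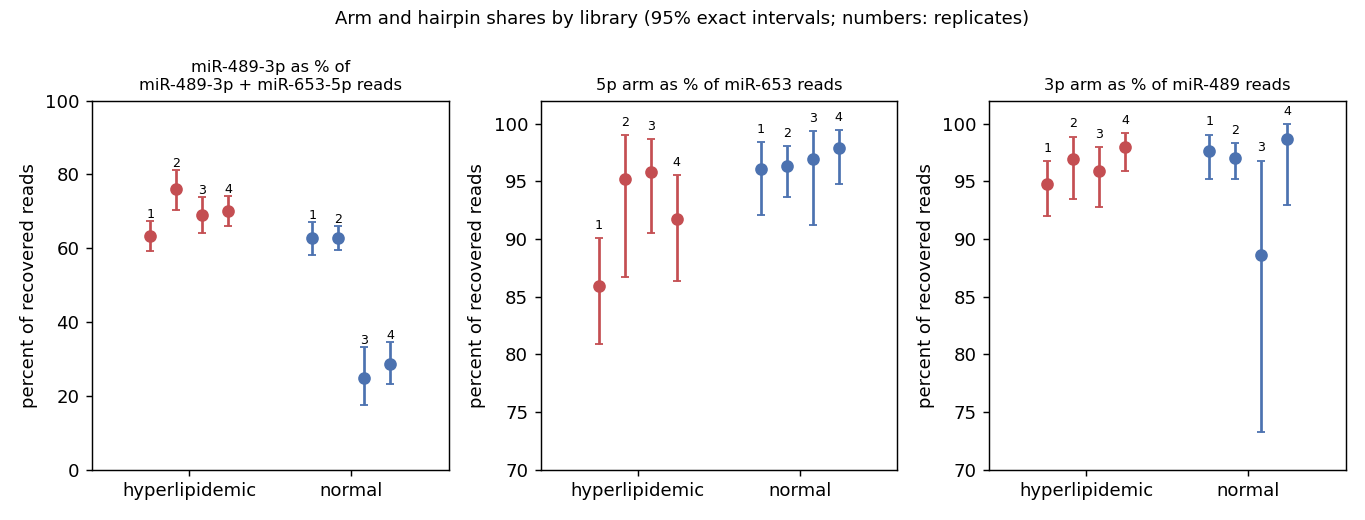
Shares of recovered reads in each library, in percent, hyperlipidemic libraries to the left of normal ones, with exact 95% intervals and replicate numbers. The left panel, from 0 to 100%, gives miR-489-3p as a share of both leading arms, at 24.8% and 28.7% in normal replicates 3 and 4 and at 62.7% or above elsewhere, and the other panels, whose axes start at 70%, give the leading arm of each hairpin.

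Other neighbouring hairpins were set beside this pair. There were 35 pairs of catalogued hairpins on 1 strand within 1000 bases whose leading arms differ, pass the filter and have at least 20 reads in every library. The log2 ratio of miR-653-5p to miR-489-3p ranged over 3.23 across the 8 libraries, against a median range of 1.87 over the pairs, and held place 3 of 35. Mir29a with Mir29b1 (3.53) and Mir362 with Mir501 (3.36) ranged wider. That width rests on normal replicates 3 and 4: over the other 6 libraries the log2 ratio ranged over 0.90, against a median of 0.83 over the pairs, and held place 15 of 35. The Pearson correlation of the 2 leading arms across libraries was 0.41, against a median of 0.54, and 12 pairs were below 0. These are descriptions over 8 libraries that share groups and depth. Of the 35 pairs 21 share a leading arm with another pair, and some leading arms, such as miR-29b-3p, come from several loci. The groups did not overlap in this ratio for 2 of the 35 pairs (5.71%), and the pair of miR-489-3p and miR-653-5p is 1 of them, narrowly, with 1.73 as the lowest hyperlipidemic and 1.68 as the highest normal ratio.

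**Figure D4:**
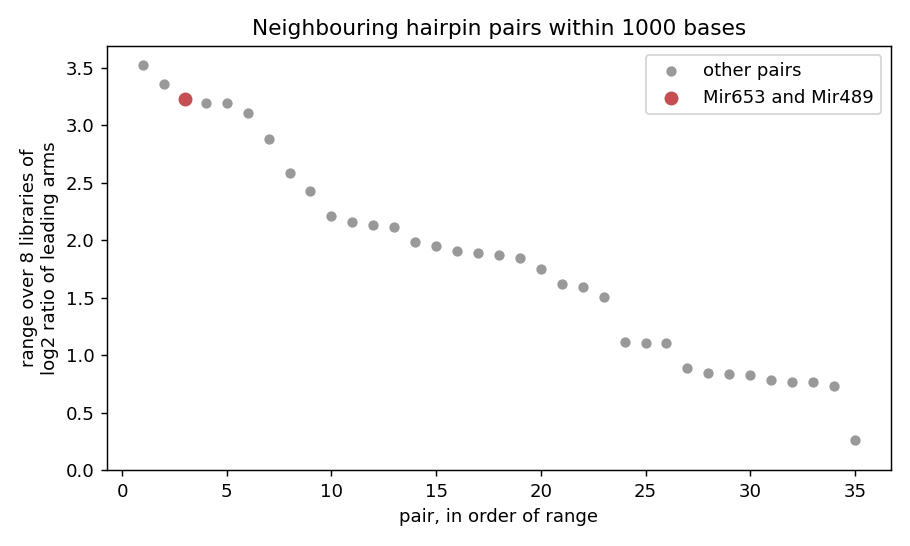
Range over the 8 libraries of the log2 ratio of leading arms for 35 pairs of neighbouring hairpins, in order of size. The red point is the pair of Mir653 and Mir489 at 3.23, and grey points are the other pairs.

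Each hairpin gave most of its reads from 1 arm, the 5p arm for miR-653 and the 3p arm for miR-489. Over all libraries the 5p arm held 94.1% of the miR-653 reads (1293 of 5p against 81 of 3p), and the 3p arm held 96.6% of the miR-489 reads (2066 of 3p against 72 of 5p). Both lie below the median of 97.6% for the leading arm over 187 hairpins with both arms in the table and at least 100 reads, at places 128 and 108. Which arm leads was the same in every library.

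The 5p share of miR-653 was 86.0%, 95.2%, 95.8% and 91.8% in hyperlipidemic replicates 1 to 4, against 96.1%, 96.3%, 96.9% and 97.9% in normal replicates 1 to 4. Every hyperlipidemic share was below every normal one, as for 6.42% of the 187 hairpins. Only the interval of hyperlipidemic replicate 1 (80.9 to 90.1) stayed below all 4 normal intervals, the lowest of which starts at 91.2, and the other 3 hyperlipidemic intervals overlapped normal ones. This share carries the fold of miR-653-5p in it, since the 3p arm stood at 3.45 ± 2.71 RPM (SD, n = 4) in hyperlipidemic libraries, against 4.55 ± 2.77 RPM (SD, n = 4) in normal ones. The 3p share of miR-489 was 94.7% to 98.0% in hyperlipidemic and 88.6% to 98.7% in normal libraries, and the groups overlapped.

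Across the 8 libraries the 2 arms of miR-653 had a Pearson correlation of 0.62 on the log2 scale and the 2 arms of miR-489 one of 0.66, while miR-653-5p and miR-489-3p had one of 0.41. With each library taken as its deviation from its group mean, these were 0.78, 0.65 and 0.62. Over the 6 libraries without normal replicates 3 and 4 they were 0.76, 0.85 and 0.97, values that hold the step between the groups. In miR-489-3p that step rests on the removal of its lowest values, and these correlations were added after the data were seen. By deviations from the group means over all 8 libraries, miR-653-3p held place 2 of 395 catalogued miRNAs in likeness to miR-653-5p, although the 3p arm has few reads. MiR-489-3p held place 7 by the same measure. Hyperlipidemic replicate 2 was the lowest library of its group in all 4 members, and normal replicate 2 was the highest of the 8 libraries in all 4.

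The miRNAs most like miR-653-5p over the 8 libraries were miR-26b-3p (Pearson correlation 0.87), miR-92a-1-5p (0.86), miR-15b-3p (0.86), miR-30c-5p (0.85) and miR-191a-3p (0.84). Most of them are the less abundant arms of their hairpins. All 5 had log2 folds below 0, the lowest that of miR-92a-1-5p at 12.4 RPM in hyperlipidemic and 28.6 RPM in normal libraries (group means; log2 fold -1.28, SE 0.41), so part of this likeness is the step between the groups. By deviations from the group means the most alike were let-7f-2-3p (0.79), miR-653-3p (0.78), miR-26b-3p (0.72), miR-3074 (0.71) and miR-484 (0.66). MiR-26b-3p is the 1 miRNA that both measures name.

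MiR-489-3p had other miRNAs near it, looked up after its values were seen. Over the 8 libraries these were let-7f-1-3p (Pearson correlation 0.87), miR-181c-5p (0.86) and miR-34a-3p (0.85). By deviations from the group means they were miR-338-3p (0.97), miR-15b-5p (0.94) and miR-181c-5p (0.94). MiR-653-5p held place 85 of 395 by values and 61 by deviations.

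MiRNAs described as acting on osteoclasts were examined beside the members, since osteoclasts carry the calcitonin receptor. None passed limma's Benjamini-Hochberg threshold of 0.05 over all 696 miRNAs tested, where 0.718% passed, nor did any by voom on recovered reads. The miRNAs that passed were all higher and predicted, and stood at 0 RPM in every normal library. They averaged 11.4 to 24.3 RPM in hyperlipidemic libraries, where 1 read of the predicted class was worth 6.94 to 8.66 RPM. They rest on few reads in a library, and 0 miRNAs passed with a pseudocount of 1 read. At an unadjusted p under 0.05 limma called 17.8% of the 696 and voom 20.5% of the 396 catalogued ones. Calcr itself and the marker genes of osteoclasts are mRNAs and were not analysed here. Of the osteoclast-promoting list, 5 of 7 tested members had log2 folds below 0, with a median of -0.49, and 2 had an unadjusted p under 0.05 by limma and 3 by voom. That list made up 8.73% to 11.3% of the catalogued signal in hyperlipidemic and 12.1% to 20.4% in normal libraries. Its share was highest in normal replicates 3 (17.2%) and 4 (20.4%). All lists are parts of 1 total, of which the erythroid list made up 19.2% to 33.1% in hyperlipidemic and 7.77% to 20.2% in normal libraries. The part of this in the share of the osteoclast-promoting list was not tested. MiR-21-5p, which promotes osteoclast formation, averaged 36230 ± 6760 RPM (SD, n = 4) in hyperlipidemic libraries, against 69100 ± 22806 RPM (SD, n = 4) in normal ones. Its log2 fold was -0.89 with an SE of 0.28, and its adjusted p by limma was 0.153. MiR-148a-3p, also described as promoting osteoclast formation, stood at a log2 fold of -0.76 (SE 0.35). MiR-199a-5p was at -0.85 (SE 0.34), and the myeloid miRNA miR-223-3p at 0.38 (SE 0.36). MiR-199a-5p is also on the mesenchymal list and miR-223-3p on the myeloid list, so these lists are not independent.

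Of the osteoclast-inhibiting list, 8 of 9 tested members had log2 folds below 0, with a median of -0.44, and 1 had an unadjusted p under 0.05 by limma and 1 by voom. It made up 2.99% to 4.79% of the catalogued signal in hyperlipidemic and 3.88% to 5.73% in normal libraries. MiR-146a-5p, which NF-kB induces and which restrains the pathway, averaged 3641 ± 456 RPM (SD, n = 4) in hyperlipidemic libraries, against 5896 ± 1378 RPM (SD, n = 4) in normal ones. Its log2 fold was -0.68 with an SE of 0.23, and its adjusted p by limma was 0.158. MiR-26a-5p was at -0.18 (SE 0.24), miR-125a-5p at -0.52 (SE 0.30) and miR-145-5p at 0.54 (SE 0.40). Both medians lie below the catalogued median of -0.20. Without normal replicates 3 and 4 the promoting median was -0.29 and the inhibiting one -0.42, against a catalogued median of -0.13. With median-of-ratios factors they were -0.28 and -0.23, against a catalogued median of -0.0015.

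Lists of other cell types in or near bone had no member past the threshold by limma or voom either. The 6 striated muscle miRNAs, tested because muscle stem cells use Calcr in mouse, made up less than 1% of the catalogued signal in each library. Their share was 0.474%, 0.198%, 0.0195% and 0.313% in hyperlipidemic replicates 1 to 4, against 0.195%, 0.0559%, 0.341% and 0.0427% in normal replicates 1 to 4. The groups overlap, and the part of muscle signal in the members was not tested. The median log2 fold was 0.42, 0.55 without normal replicates 3 and 4, and below 0 without hyperlipidemic replicate 1 (-0.019) or normal replicate 4 alone (-0.011). MiR-133a-3p, the most abundant of them, had a log2 fold of 0.70 with an SE of 1.16. Of the 6, 1 had an unadjusted p under 0.05 by limma and 0 by voom. The neuronal list, since Calcr is also a gene of the brain, made up 0.0359% to 0.0598% of the signal in hyperlipidemic and 0.0462% to 0.0844% in normal libraries, with 0 of 4 tested members under an unadjusted p of 0.05 by either. Its median log2 fold was -0.43, and -0.15 without normal replicates 3 and 4.

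The mesenchymal list made up 2.77% to 6.05% of the signal in hyperlipidemic and 3.79% to 7.96% in normal libraries, with a median log2 fold of -0.14 over 5 tested members. That sign did not hold: the median was 0.17 without normal replicates 3 and 4, 0.074 with median-of-ratios factors, 0.046 scaled without the erythroid list and 0.035 without hyperlipidemic replicate 3. Of the 5, 1 had an unadjusted p under 0.05 by limma and 1 by voom. The myeloid list, whose lineage includes the precursors of osteoclasts, had 3 of 4 log2 folds above 0 and a median of 0.35, which was -0.32 without normal replicates 3 and 4 and -0.0014 without normal replicate 4 alone. In normal replicates 3 and 4, the myeloid share, the erythroid share and miR-489-3p were all low. The mesenchymal share was higher there than in any other library. MiR-653-5p in these libraries (94.9 and 121 RPM) was level with normal replicate 1 (97.8 RPM). Hyperlipidemic replicate 4 had the lowest myeloid share of its group (14.8%) and the highest miR-489-3p (102.2 RPM). Hyperlipidemic replicate 2 had the highest share (19.96%) and the lowest miR-489-3p (60.6 RPM), while replicate 3 was above replicate 1 in both. The part of these lists in miR-489-3p or miR-653-5p was not tested. By limma 1 myeloid member had an unadjusted p under 0.05, and it was lower: miR-223-5p, at a log2 fold of -0.91 (SE 0.30). By voom 2 members did. The erythroid list had 1 member with an unadjusted p under 0.05 by limma and 1 by voom. Its median log2 fold was 0.29, with and without normal replicates 3 and 4, but 2 members were above 0 and 2 below. MiR-144-3p was at 1.52 (SE 0.48) and miR-451-5p at 0.71 (SE 0.40), against -0.14 for both miR-486 (SE 0.39) and miR-144-5p (SE 0.27).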

How the data were processed

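Small RNA of bone around titanium implants was sequenced in 8 libraries as 50-bp single-end reads, from gel bands of 140 to 160 bp, per the labels' protocols. The tool bcl2fastq 1.8.4 and the build Rnor_6.0 are listed in the submitters' processing notes, and no source used here gives the aligner, the miRNA reference or how reads were counted. The authors deposited 1 table with a signal per library that they named FPKM. It is in reads per 1000000, scaled separately for the 604 catalogued (rno-) and the 370 predicted miRNAs. Per the file headers, the authors' deposited table also holds a fold (a ratio), the log2 of that fold, a p-value and an adjusted p-value, from a test that no source used here names.

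Low values of a class in a library were whole multiples of 1 step, the worth of 1 read. In each class and library 100% of values up to 20 reads were whole within 0.1 read, and reads were recovered from the steps. Because the steps of the 2 classes differ, limma 3.58.1 in R 4.3.3 (lmFit, eBayes with a trend, two-sided) was run on log2(value + 0.475), where 0.475 is the smallest value above 0 in a library, as the median of the 8. MiRNAs above 0 in at least 4 libraries and with a mean of at least 2.375 RPM were tested, 696 in all, with Benjamini-Hochberg adjustment. Voom in limma was run on the recovered reads of the rno- class and called 0 of 396, with a library size equal to the reads behind the class scale. Intervals are exact Clopper-Pearson intervals and cover counting error only, since reads are not independent molecules.

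The labels gave the groups and replicate numbers. Correlations of deviations from the group means were -0.08 to 0.19 between same-numbered libraries, against -0.16 to 0.08 between libraries with different numbers. The highest were those of replicates 1 (0.19) and 4 (0.15). All were low and the labels name no pairs, so the numbers were not taken as pairs in the main fit. A replicate block was run as an alternative. The members, lists and rules were chosen with earlier results of these data known. The named miRNAs are the members, the 5 most like miR-653-5p by each of 2 measures, and up to 4 of each list, those past the threshold first and then the most abundant. The miRNAs most like miR-489-3p were named outside this rule, after its values were seen. The list entry miR-31-5p was matched to rno-miR-31a-5p. All 4 members were found by name in the RefSeq table of build GRCr8, as were 544 of the 604 catalogued rows.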

Additional observations from a re-analysis of the deposited data

Results flagged for a closer look

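Among 28 groups of 4 libraries checked for a sample far from the others, 2 stood out, where chance gives about 1 in 20. MiR-653-5p in hyperlipidemic replicate 2, at 19.0 RPM, lay far below the other 3 hyperlipidemic libraries (43.2 to 43.5 RPM), with 0.989 of the group's range between it and its neighbour. It rested on 60 reads (exact 95% interval 14.5 to 24.5 RPM). Without it the log2 fold was -1.53 in place of -1.82. The 3p arm of miR-489 held 88.6% of the hairpin's reads in normal replicate 3, below 97.0% to 98.7% in the other normal libraries, from 31 of 35 reads (exact 95% interval 73.3 to 96.8).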

How the results depend on the processing

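The log2 fold of miR-653-5p stayed below 0 in all 17 alternatives (-2.05 to -1.61, and -1.95 to -1.53 with 1 library left out), and -1.82 with the replicate block. That of miR-653-3p ran from -0.97 to -0.31 (-0.90 to -0.095 with 1 left out), and that of miR-489-5p from -1.11 to -0.065 (-0.88 to 0.26, above 0 only without normal replicate 2). That of miR-489-3p was -1.59 without normal replicates 3 and 4, its lowest values, a removal that fixes the sign. With 1 left out it ran from -0.82 to 0.37, above 0 only without normal replicate 2. The higher log2 ratio of miR-489-3p to miR-653-5p was 0.46 without normal replicates 3 and 4, in place of 1.57 (1.15 to 1.94 with 1 left out).

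Of all miRNAs tested, 5 passed, all predicted ones at 0 RPM in every normal library. With a pseudocount of 1, 10 passed, with a pseudocount of 1 read 0, and with catalogued miRNAs tested alone 3. With median-of-ratios factors 8 passed, with the replicate block 0, by voom 0 and with 1 library left out 0 to 12. Groups did not overlap for 88, for 46 of the catalogued ones alone, and for 156 without normal replicates 3 and 4, where fewer libraries have to be separated. The catalogued median of -0.20 was -0.0015 with median-of-ratios factors and -0.030 scaled without the erythroid list. The myeloid median of 0.35 was -0.32 without normal replicates 3 and 4. The osteoclast-promoting median ran from -0.88 to -0.33 with 1 library left out and was -0.28 with median-of-ratios factors. Causes were not tested. The planned edgeR and DESeq2 fits were not run, since the 2 classes of a library have different steps. Depth limits the passenger arms, with 1 to 34 reads in a library.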
